A study of Sus scrofa with 22 samples.

Results

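Solute carrier genes encode membrane proteins that move small molecules, from sugars and amino acids to metal ions and nucleotides, across the membranes of a cell. They were taken here as every gene whose single annotated symbol consisted of SLC, a family number, a letter and a member number. This gave 120 of the 6765 named genes on the array, covered by 176 of the 23999 probe sets tested, and each gene was read from its brightest probe set over all samples. Of the 120, 117 are transporters and 3 have symbols of the same form but encode regulators or adaptor proteins (SLC2A4RG, SLC9A3R1 and SLC9A3R2).

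The pigs were offspring of German Landrace gilts, and every dam, at all 4 stages, was on the adequate protein (AP) diet during gestation. Fetuses were sampled at day 94 of gestation (94 dpc, n = 6), and piglets or grown animals at day 1 (1 dpn, n = 6), day 28 (28 dpn, n = 6) and day 188 (188 dpn, n = 4) of postnatal life. A stage drew on the litters of 3 gilts, with no record here of which animal belonged to which, so p-values that treat animals as independent are too small if littermates are alike. The values are signals of an Affymetrix porcine array on a linear scale, and the number of arrays limits the precision.

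The labels gave the tissue as liver, although the title of the series spoke of muscle. The summed signal of 11 skeletal muscle fibre genes was 283865 to 765473 per array, against 2247 to 56932 for 15 hepatocyte genes, of which 4 or fewer had a mean below background at any stage. SLC2A2 and SLC10A1, the glucose and bile acid carriers typical of hepatocytes, had mean signals below background at all 4 stages, with means of 15.6 to 31.9 and 23.9 to 61.3. Background was set to a signal of 69.7, below which lay 95% of the values of 23 control probe sets with no target in the sample. Of the 6 arrays at 1 dpn, 4 had weak signal toward the 5' end of transcripts, with a GAPDH 5'/3' ratio of 0.140 to 0.332. The other 2, replicates 1 and 6, had ratios of 1.14 to 1.15, and the arrays of the other stages had 0.731 to 1.26. Most changes around birth are therefore also given with only those even arrays at 1 dpn, a setting chosen after the data were seen. In whole tissue, fewer cells of a type and less RNA per cell cannot be told apart.

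Carriers of the SLC25 family sit mainly in the inner mitochondrial membrane, where they exchange ATP for ADP, bring in phosphate and pass fuels, reducing equivalents and cofactors between cytosol and matrix. Transporters of the plasma membrane set what a muscle fibre can take up or release, among them the GLUT proteins (SLC2) for glucose, the monocarboxylate transporters (SLC16) for lactate and the amino acid carriers. A further set serves the endoplasmic reticulum, the Golgi apparatus, lysosomes and vesicles.

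Across the 4 stages, 71 of the 120 solute carrier genes differed in the limma F test (59.2%, adjusted p under 0.05 over all probe sets), beside 64.1% of all named genes. Of the 120, 53 were above background in each of the 22 samples and 5 were below it in each, and 18 had a mean below background at all 4 stages. From 94 dpc to 1 dpn, 23 rose and 19 fell, which is 19.2% and 15.8% of the members against 17.3% and 23.8% of all named genes. From 1 to 28 dpn, 13 rose and 8 fell (10.8% and 6.67%), against 15.1% and 12.9%. From 28 to 188 dpn, 1 rose and 16 fell (0.833% and 13.3%), against 5.03% and 11.0%. Between 94 dpc and 188 dpn, called the whole span below, 26 rose and 25 fell (21.7% and 20.8%), against 18.4% and 27.0%. The difference between these shares and those of all named genes was not tested. The median log2 change of the members was 0.11, -0.01, -0.18 and 0.02 in these 4 comparisons, beside -0.05, 0.04, -0.10 and -0.08 over all named genes.

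Calls in the steps around birth depended in part on the arrays with weak 5' signal. With the even arrays only, 16 members rose and 17 fell from 94 dpc to 1 dpn, against 13.7% and 17.8% of all named genes, and 13 rose and 8 fell from 1 to 28 dpn, against 12.1% and 9.89%. Of the members called in the first step, 25 were called the same way in both settings, 17 only with all arrays, 8 only with the even arrays and 0 in opposite ways. In the second step these counts were 15, 6, 6 and 0.

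**Figure D1:**
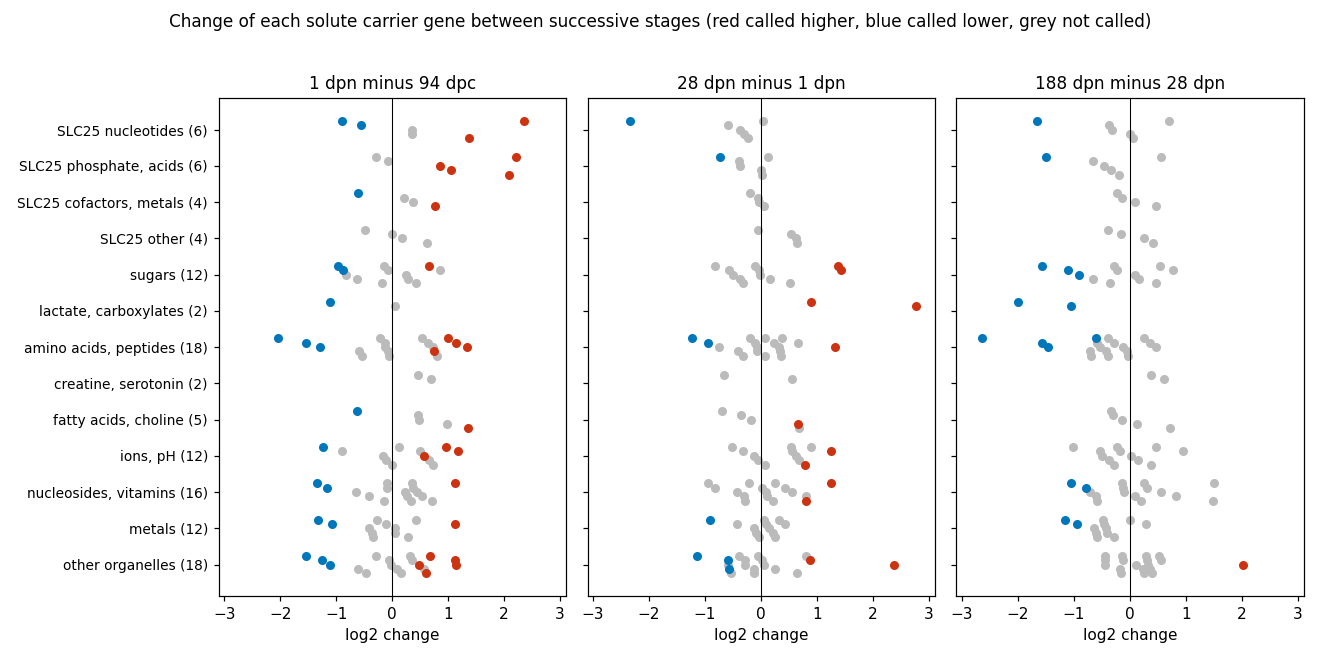
Each point is 1 solute carrier gene, placed by its log2 change between successive stages (horizontal axes, log2 units) in rows by substrate or organelle, with the number of genes in brackets; red was called higher, blue lower and grey was not called, and points in a row are spread vertically only for legibility. In the first panel the mitochondrial phosphate and acid carriers hold 4 red points of 6, and in the last panel 1 red point, SLC35F5, stands among 15 blue points, the 3 regulators and adaptors not being drawn.

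Among the 20 mitochondrial SLC25 carriers, 7 rose and 3 fell between 94 dpc and 1 dpn, with a median log2 change of 0.35. These are 35.0% and 15.0% of the carriers, against 17.3% and 23.8% of all named genes. From 1 to 28 dpn 0 rose and 2 fell (10.0%, against 15.1% and 12.9%), and from 28 to 188 dpn again 0 rose and 2 fell (10.0%, against 5.03% and 11.0%). With the even arrays, 6 rose and 2 fell in the first step, against 13.7% and 17.8% of all named genes. In the second step 3 rose and 3 fell, against 12.1% and 9.89%. From 94 dpc to 188 dpn, 6 were higher and 2 lower (30.0% and 10.0%, against 18.4% and 27.0%). After quantile normalization the first step held 8 rises and 2 falls, and after median centring 8 and 1. Of the 6765 named genes, 1407 rose and 1266 fell, and 1832 and 1012, under these scalings.

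The adenine nucleotide translocases exchange mitochondrial ATP for cytosolic ADP, and 3 of their genes were measured. SLC25A4, the isoform typical of heart and skeletal muscle, had signals of 16353 to 19849 at 94 dpc (median 18004). At 1 dpn they were 33128 to 57135 (median 52188), at 28 dpn 35628 to 46897 (median 39980), and at 188 dpn 26985, 31275, 32098 and 34338. All 6 values at 1 dpn lay above the highest of 94 dpc, and SLC25A4 rose 2.61-fold (log2 change 1.38, SE 0.15, adjusted p = 5.9e-07). With the even arrays alone the rise was 0.99 (adjusted p = 0.00039), and after quantile normalization 0.79 (adjusted p = 8.8e-05). At 188 dpn it was still 1.72-fold above 94 dpc, without overlap (adjusted p = 0.00088), a difference that was 0.29 after quantile normalization (adjusted p = 0.14).

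Over the whole span SLC25A6, a translocase isoform found in many tissues, went the other way. Its signals were 28455 to 35213 at 94 dpc (median 31748), 15147 to 31027 at 1 dpn (median 19790), 12732 to 22425 at 28 dpn (median 18709), and 4297, 4833, 5461 and 8029 at 188 dpn. The values at 188 dpn lay below all others, and SLC25A6 fell 3.16-fold from 28 to 188 dpn (log2 change -1.66, SE 0.22, adjusted p = 5.5e-05). Over the whole span it fell 5.72-fold (log2 change -2.52, SE 0.22, adjusted p = 9.1e-09). The step to 1 dpn was smaller (log2 change -0.55, SE 0.20, adjusted p = 0.034), was -0.09 with the even arrays (adjusted p = 0.83) and -0.29 after median centring (adjusted p = 0.30). After quantile normalization it was larger, -1.02 (adjusted p = 0.00027). Without further normalization, the call at 1 dpn (adjusted p = 0.034) was lost when any of 7 single arrays was left out. These were replicates 2 to 5 of 1 dpn and replicates 1, 3 and 5 of 94 dpc (adjusted p up to 0.083).

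SLC25A5, the remaining isoform, spread widely between animals at 3 of the 4 stages. It ranged from 675 to 1033 at 94 dpc, 687 to 2490 at 1 dpn and 698 to 821 at 28 dpn, and had signals of 284, 323, 570 and 2494 at 188 dpn. It was called in 0 of the 4 comparisons. The 3 isoforms have near-identical sequences, and how far each probe set also binds the transcripts of the others was not tested.

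The course of SLC25A4 relative to SLC25A6 was also measured within arrays, as the log2 signal of SLC25A4 minus that of SLC25A6. Only changes in this difference can be read, since levels of different probe sets are not comparable. The mean was -0.80 ± 0.11 (SD, n = 6) at 94 dpc, 1.13 ± 0.68 (n = 6) at 1 dpn, 1.21 ± 0.24 (n = 6) at 28 dpn and 2.50 ± 0.44 (n = 4) at 188 dpn. It increased by 1.93 from 94 dpc to 1 dpn without overlap (two-sided exact permutation test, p = 0.0022, the smallest this design allows; 0.0087 after Benjamini-Hochberg adjustment over 4 comparisons). The change from 1 to 28 dpn was 0.08 (exact p = 0.79), and that from 28 to 188 dpn was 1.29 without overlap (exact p = 0.0095, the smallest possible; adjusted 0.013). In that last step SLC25A4 itself did not rise. Its 4 signals of 188 dpn lay below all of 28 dpn, though the change was not called. The 4 arrays with weak 5' signal had differences of 1.40 to 1.85, against 0.24 and 0.33 on the even arrays of 1 dpn, so that with the even arrays the first step was 1.08 and the second 0.93. This pair was compared with its stage values already known.

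**Figure D2:**
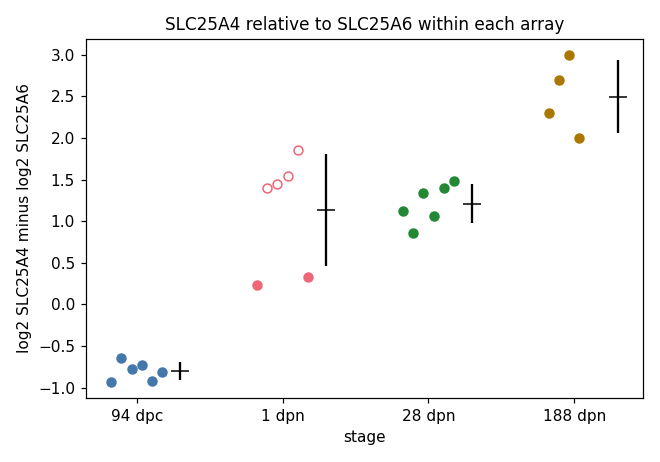
The vertical axis gives the log2 signal of SLC25A4 minus that of SLC25A6 on each array and the horizontal axis the stage; points are animals, open points are the 1 dpn arrays with weak 5' signal, and the bar at the right of each stage is the mean with its SD. The 6 animals of 94 dpc lie between -0.93 and -0.64, and the 4 of 188 dpn between 2.00 and 2.99.

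On its brighter probe set SLC25A33, a carrier of pyrimidine nucleotides, was high at 1 dpn only. Its signals were 328 to 485 at 94 dpc (median 432), 990 to 10489 at 1 dpn (median 1835), 252 to 904 at 28 dpn (median 413), and 314, 333, 374 and 691 at 188 dpn. All 6 values at 1 dpn lay above all values at the other 3 stages, but they spread widely, and the highest, 10489, came from an even array (replicate 1). It rose 5.09-fold to 1 dpn (log2 change 2.35, SE 0.42, adjusted p = 0.00017) and fell by as much to 28 dpn (adjusted p = 0.00031). With the even arrays both changes were larger, 3.63 and -3.63 (adjusted p = 2.8e-05 and 6.0e-05). A second probe set, with means below background at all 4 stages (7.52 to 36.1), was called in neither step (0.49 and -0.34), and the mean of both sets gave 1.42 and -1.34 (adjusted p = 0.0056 and 0.013). Of the other nucleotide carriers, SLC25A24, which exchanges ATP-magnesium for phosphate, fell from a mean signal of 1070 to 621 at birth (log2 change -0.90, adjusted p = 0.0082; -1.11 with the even arrays), and SLC25A36 was not called.

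The carriers of phosphate, acids and acylcarnitine rose in 4 of 6 genes from 94 dpc to 1 dpn (66.7%, against 17.3% of all named genes). SLC25A3, which imports the phosphate used to make ATP, had signals of 21450 to 25320 at 94 dpc (median 25054), 34260 to 48133 at 1 dpn (median 45655), 43426 to 53191 at 28 dpn (median 47019), and 35772, 37208, 37844 and 39952 at 188 dpn. It rose 1.80-fold to 1 dpn without overlap (log2 change 0.85, SE 0.13, adjusted p = 2.4e-05), by 0.64 with the even arrays (adjusted p = 0.006) and by 0.32 after quantile normalization (adjusted p = 0.026). At 188 dpn it was 1.57-fold above 94 dpc (adjusted p = 0.00089), a call lost after quantile normalization (0.29, adjusted p = 0.063) and when both probe sets of the gene were averaged (0.27, adjusted p = 0.29).

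SLC25A11 and SLC25A12 belong to the malate-aspartate shuttle, which carries reducing equivalents from cytosolic NADH into mitochondria. SLC25A11, the oxoglutarate carrier, had signals of 1285 to 1710 at 94 dpc (median 1490), 3117 to 10632 at 1 dpn (median 8026), 4440 to 7085 at 28 dpn (median 5099), and 1592, 1704, 1816 and 2532 at 188 dpn. It rose 4.66-fold at birth without overlap (log2 change 2.22, SE 0.24, adjusted p = 3.7e-07) and by 1.43 with the even arrays (adjusted p = 2.0e-04). From 28 to 188 dpn it fell 2.82-fold, again without overlap (log2 change -1.50, SE 0.26, adjusted p = 0.00079), to values that overlapped those of 94 dpc.

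SLC25A12, an aspartate-glutamate carrier, had signals of 1253 to 1874 at 94 dpc (median 1466), 1928 to 11582 at 1 dpn (median 9637), 3765 to 5601 at 28 dpn (median 4873), and 2620, 2889, 3267 and 3491 at 188 dpn. The 4 arrays with weak 5' signal were all above the 28 dpn animals, whereas the even arrays, at 1928 and 3039, were all below them. It rose 4.25-fold at birth with all arrays (log2 change 2.09, SE 0.33, adjusted p = 4.8e-05) and by 0.70 with the even arrays (adjusted p = 0.025). At 188 dpn it was 2.05-fold above 94 dpc without overlap (adjusted p = 0.033), and 6 single arrays each ended that call when left out, namely replicates 2, 3 and 4 of 188 dpn and replicates 1, 5 and 6 of 94 dpc (adjusted p up to 0.082). When only these stages were fitted, the adjusted p was 0.00028.

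SLC25A20, which takes acylcarnitines into the matrix for fatty acid oxidation, ranged from 941 to 1162 at 94 dpc (median 1026), 1656 to 2715 at 1 dpn (median 2385) and 2020 to 2673 at 28 dpn (median 2154), and had signals of 1420, 1608, 1660 and 1748 at 188 dpn. It rose 2.08-fold at birth without overlap (log2 change 1.06, SE 0.15, adjusted p = 9.5e-06), and by 0.92 with the even arrays (adjusted p = 0.00077). It remained above 94 dpc at 188 dpn (1.53-fold, adjusted p = 0.005). SLC25A21, the oxodicarboxylate carrier, was the exception in timing: it fell 1.66-fold from 1 to 28 dpn without overlap (log2 change -0.73, SE 0.17, adjusted p = 0.003; -0.68 with the even arrays). The citrate carrier SLC25A1 was not called in any of the 4 comparisons.

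Carriers of cofactors and metals changed less. SLC25A39, a carrier needed for mitochondrial glutathione, rose from a mean signal of 316 to 559 at birth (log2 change 0.77, adjusted p = 0.00047), but was not called with the even arrays (0.50, adjusted p = 0.072). SLC25A38, the glycine carrier that serves haem synthesis, fell from 491 to 314 (log2 change -0.62, adjusted p = 0.013), but was not called with the even arrays (-0.40, adjusted p = 0.31) or on its dimmer probe set (-0.15). SLC25A37, the mitochondrial iron importer mitoferrin 1, ranged from 164 to 624 over all animals and was not called, although its dimmer probe set was higher at 28 than at 1 dpn (1.00, adjusted p = 0.022). Beside these, the 5 measured erythroid marker genes, such as HBB and ALAS2, summed to 1005 to 1688 at 94 dpc and 587 to 1798 at 1 dpn, and their part in these values was not tested. Of the 4 remaining SLC25 genes outside these groups, SLC25A46, a protein of the outer membrane, was higher at 188 dpn than at 94 dpc (mean signals 125 and 35.6, adjusted p = 0.015).

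**Figure D3:**
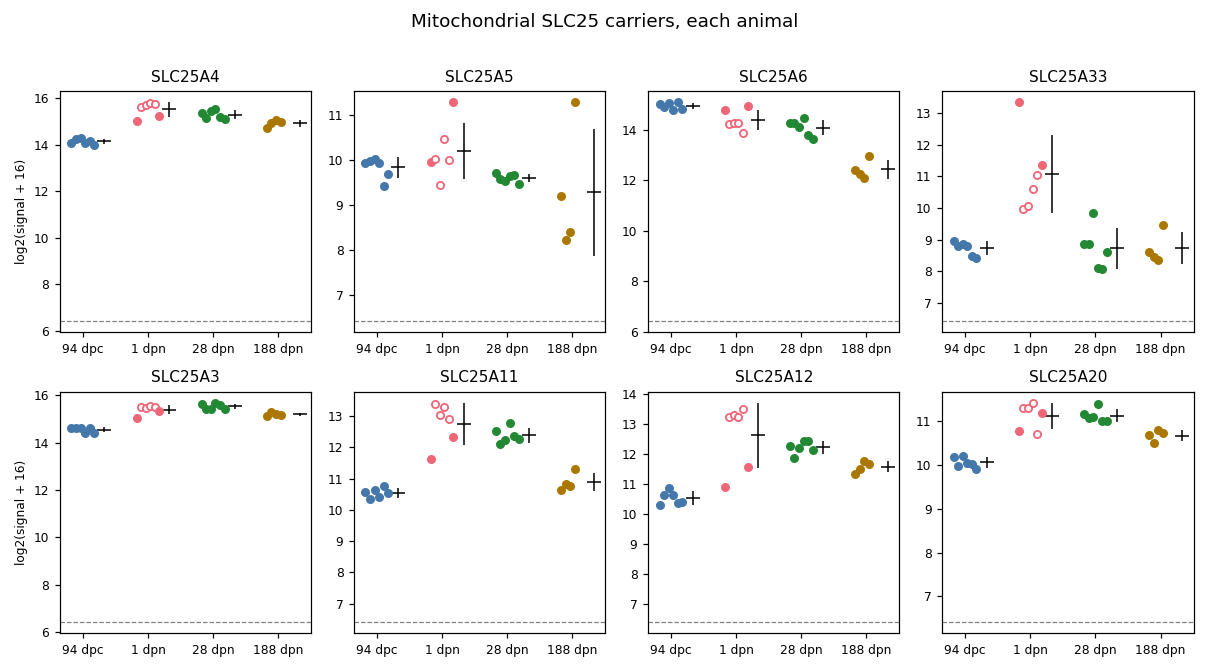
Each panel shows 1 mitochondrial carrier gene, with log2(signal + 16) on the vertical axis and the 4 stages on the horizontal axis; points are animals, open points are the 1 dpn arrays with weak 5' signal, black bars are the mean with its SD, and the dashed line is background (6.42). SLC25A4, SLC25A3, SLC25A11 and SLC25A20 step up from 94 dpc to 1 dpn without overlap, SLC25A6 is lowest in the 4 animals of 188 dpn, and SLC25A33, by its brighter probe set, is high at 1 dpn only.

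Genes linked to transport but without a solute carrier symbol were read for comparison from a list of 26 genes, of which 19 were measured. They included enzymes and regulators that are not carriers, CPT1B, CPT2, TBC1D4 and TXNIP. From 94 dpc to 1 dpn, 11 of the 19 rose and 1 fell (57.9% and 5.26%, median log2 change 0.67), against 17.3% and 23.8% of all named genes. From 1 to 28 dpn 0 rose and 6 fell (0 and 31.6%), against 15.1% and 12.9%. After quantile normalization the first step held 8 rises and 1 fall, beside 1407 and 1266 of the 6765 named genes. The outer membrane channels VDAC1, VDAC2 and VDAC3 rose by 1.11, 0.83 and 0.67 (adjusted p = 3.4e-06, 0.0015 and 0.0021), and by 0.79, 1.04 and 0.42 with the even arrays, where VDAC3 was not called (adjusted p = 0.17). MPC2, a subunit of the pyruvate carrier, rose from a mean signal of 6636 to 42119 and fell to 13065 at 28 dpn (log2 changes 2.55 and -1.60). The even arrays of 1 dpn had 18366 and 25193, against 50180 to 55878 on the arrays with weak 5' signal, and gave changes of 1.70 and -0.74 (adjusted p = 2.2e-05 and 0.022). CPT1B, which makes the acylcarnitines that SLC25A20 carries, rose from 842 to 7116 (log2 change 3.04, adjusted p = 2.0e-08; 2.91 with the even arrays) and fell after both later steps, to 609 at 188 dpn. UCP3, the uncoupling protein of skeletal muscle, rose from 72.0 to 422 (log2 change 2.35, adjusted p = 2.5e-07; 2.51 with the even arrays).

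The 67 genes of plasma membrane families held 10 rises and 10 falls from 94 dpc to 1 dpn, 10 rises and 2 falls from 1 to 28 dpn, and 0 rises and 11 falls from 28 to 188 dpn. Their median log2 changes were 0.23, 0.08 and -0.23. From 94 dpc to 188 dpn, 12 were higher and 13 lower (17.9% and 19.4%, against 18.4% and 27.0% of all named genes). The shares in the 3 steps were 14.9% and 14.9%, 14.9% and 2.99%, and 0 and 16.4%, against 17.3% and 23.8%, 15.1% and 12.9%, and 5.03% and 11.0% of all named genes. All 4 comparisons depended on the scaling of the arrays. After quantile normalization the rises and falls were 13 and 7, 10 and 5, and 1 and 6 in the 3 steps and 15 and 12 over the span. After median centring they were 18 and 8, 8 and 6, 2 and 6, and 20 and 11. In the second step the median was then -0.11 and -0.12, and in the last -0.02 and -0.03. Over the 6765 named genes the rises and falls after quantile normalization were 1407 and 1266, 897 and 1026, 385 and 601, and 1498 and 1560. After median centring those of the named genes were 1832 and 1012, 665 and 1394, 674 and 448, and 1855 and 1325.

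Of the 12 sugar carriers, 1 rose and 2 fell at birth (8.33% and 16.7%, against 17.3% and 23.8% of all named genes). In the second step 2 rose and 0 fell (16.7% and 0, against 15.1% and 12.9%). In the last 0 rose and 3 fell (0 and 25%, against 5.03% and 11.0%). After quantile normalization 1 rose and 0 fell at birth, and after median centring 3 rose and 1 fell. Under both scalings 0 fell in the last step. Of the 6765 named genes, 1407 rose and 1266 fell at birth, and 1832 and 1012, under these scalings. In the last step 601 and 448 of the named genes fell. SLC2A1 (GLUT1), the glucose transporter of many growing tissues, had signals of 259 to 420 at 94 dpc (median 323), 79.4 to 322 at 1 dpn (median 178), 117 to 287 at 28 dpn (median 159), and 102, 106, 168 and 211 at 188 dpn. It fell 1.83-fold at birth with some overlap (log2 change -0.88, SE 0.26, adjusted p = 0.012; -1.30 with the even arrays), a call lost after quantile normalization (-0.53, adjusted p = 0.14) and median centring (-0.61, adjusted p = 0.073). The values of 188 dpn all lay below those of 94 dpc (2.18-fold lower, adjusted p = 0.0039).

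SLC2A3 (GLUT3), a high-affinity glucose transporter, had signals of 378 to 1070 at 94 dpc (median 449), 192 to 435 at 1 dpn (median 212), 181 to 386 at 28 dpn (median 244), and 105, 129, 132 and 136 at 188 dpn. It fell 3.73-fold over the whole span without overlap (log2 change -1.90, SE 0.28, adjusted p = 1.1e-05). The step at birth was -0.96 (adjusted p = 0.0051) and was not called with the even arrays (-0.83, adjusted p = 0.083) or after quantile normalization (-0.64, adjusted p = 0.075). The summed signal of 10 endothelial marker genes was 15892 to 18829 at 94 dpc, 5294 to 7016 at 1 dpn, 9412 to 13982 at 28 dpn and 4212 to 5738 at 188 dpn. That of 5 fibroblast genes was 34296 to 50043 at 94 dpc and 10667 to 17988 at 1 dpn. Their part in the falls of SLC2A1 and SLC2A3 was not tested.

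SLC2A4 (GLUT4), the insulin-responsive glucose transporter of muscle and fat, was dim and scattered. It ranged from 81.1 to 130 at 94 dpc, 69.3 to 312 at 1 dpn and 40.3 to 261 at 28 dpn, and had signals of 18.3, 51.8, 161 and 227 at 188 dpn. The stages overlapped and it was called in 0 of the 4 comparisons. Its other 2 probe sets, dimmer over all samples, did not give the same picture. One was higher at 188 dpn than at 94 dpc (log2 change 1.74, adjusted p = 0.0054), and the other was higher at 1 dpn than at 94 dpc (1.07, adjusted p = 0.010).

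SLC2A12 (GLUT12), a glucose transporter also found in muscle, increased with age. It ranged from 61.5 to 92.8 at 94 dpc (median 78.8), 45.7 to 225 at 1 dpn (median 124) and 238 to 437 at 28 dpn (median 319), and had signals of 402, 427, 428 and 567 at 188 dpn. All values of 28 dpn lay above those of 1 dpn (2.68-fold, log2 change 1.42, SE 0.24, adjusted p = 0.00019; 1.84 with the even arrays). Over the whole span it rose 4.99-fold (log2 change 2.32, SE 0.27, adjusted p = 4.8e-07). SLC2A5, the fructose transporter, was near background, with a mean of 46.3 at 1 dpn and 122 at 28 dpn (adjusted p = 0.012, and 0.084 with the even arrays). SLC45A3 had signals of 6.84, 11.2, 21.1 and 73.3 at 188 dpn against 22.4 to 189 at 28 dpn (adjusted p = 0.029), a call lost without any of replicates 2, 3 or 4 of 188 dpn or replicates 4 or 5 of 28 dpn (adjusted p up to 0.11). It was also lost after median centring (0.059), quantile normalization (0.064) and averaging its 3 probe sets (-0.46 in place of -1.57, adjusted p = 0.24), the dimmer 2 of which changed by 0.34 and -0.15.

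SLC2A4RG is named after SLC2A4 because its product binds the SLC2A4 gene, and it is not a carrier. Its signals were 1867 to 2987 at 94 dpc (median 2149), 239 to 1145 at 1 dpn (median 674), 1752 to 3080 at 28 dpn (median 2149), and 1489, 1544, 1720 and 1838 at 188 dpn. All values at 1 dpn lay below all others. It fell 3.52-fold at birth (log2 change -1.82, SE 0.26, adjusted p = 1.1e-05) and rose 3.45-fold to 28 dpn (adjusted p = 3.2e-05), and both changes were larger with the even arrays (-2.51 and 2.48).

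The lactate exporter of fast, glycolytic fibres, MCT4 (SLC16A3), peaked at 28 dpn. Its signals were 412 to 666 at 94 dpc (median 518), 190 to 1117 at 1 dpn (median 574), 2571 to 6050 at 28 dpn (median 3093), and 802, 825, 965 and 1076 at 188 dpn. The 28 dpn animals stood above all others. SLC16A3 rose 6.79-fold from 1 to 28 dpn (log2 change 2.76, SE 0.30, adjusted p = 1.6e-06; 2.93 with the even arrays) and fell 3.98-fold to 188 dpn (log2 change -1.99, SE 0.34, adjusted p = 0.00059). In the same animals the summed macrophage markers were 1828 to 3960 at 1 dpn, 3055 to 11429 at 28 dpn and 1646 to 6038 at 188 dpn. The summed muscle fibre markers were 377966 to 518595, 677681 to 765473 and 640621 to 732023. The part of either in the course of SLC16A3 was not tested. The other monocarboxylate family member measured, SLC16A13, was called in all 3 steps, with mean signals of 357, 156, 304 and 137 in order of age, and with the even arrays its first 2 changes were -1.28 and 1.06. The widespread lactate transporter SLC16A1 had no single-symbol probe set and was not analysed here.

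The 18 amino acid and peptide carriers split between rises and falls at birth, with 4 higher and 3 lower. These are 22.2% and 16.7%, against 17.3% and 23.8% of all named genes. In the last step 4 fell (22.2%, against 11.0%). SLC38A1 (SNAT1), a sodium-coupled carrier of glutamine and other neutral amino acids, had signals of 542 to 697 at 94 dpc (median 632), 66.0 to 224 at 1 dpn (median 143), 97.9 to 183 at 28 dpn (median 154), and 31.8, 39.3, 43.1 and 65.1 at 188 dpn. It fell 4.12-fold at birth without overlap (log2 change -2.04, SE 0.23, adjusted p = 6.6e-07; -1.85 with the even arrays). All 4 values at 188 dpn were below background, at least 1.92-fold below 28 dpn (adjusted p = 0.00071) and at least 7.49-fold below 94 dpc (adjusted p = 1.0e-09). A second probe set of the gene fell in the same comparisons, whereas the third, with means below background at all stages, was not called in any of them (-0.22, -0.12 and -0.31). The mean of the 3 sets gave -1.28 at birth and -2.33 over the span.

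SLC7A1 (CAT1), the main importer of arginine and lysine, had signals of 914 to 1353 at 94 dpc (median 1051), 1072 to 2985 at 1 dpn (median 1899), 541 to 1169 at 28 dpn (median 743), and 177, 205, 257 and 379 at 188 dpn. It was called in all 3 steps. The rise at birth was small and overlapping (log2 change 0.75, SE 0.26, adjusted p = 0.034). It was not called with the even arrays (0.61, adjusted p = 0.20) or without any of replicates 4, 5 or 6 of 1 dpn or replicates 1 to 5 of 94 dpc (adjusted p up to 0.087). The later falls were 2.35-fold (log2 change -1.23, SE 0.26, adjusted p = 0.0016; -1.10 with the even arrays) and 2.97-fold (log2 change -1.57, SE 0.30, adjusted p = 0.0013), the second without overlap. The first of them had an adjusted p of 0.060 once the 5'/3' ratio of GAPDH was added to the model.

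SLC38A10, a further member of the same family as SLC38A1, dropped late. It ranged from 456 to 677 at 94 dpc, 328 to 510 at 1 dpn and 276 to 433 at 28 dpn, and had signals of 13.6, 19.7, 47.7 and 220 at 188 dpn. It fell 6.23-fold from 28 to 188 dpn without overlap (log2 change -2.64, SE 0.36, adjusted p = 8.9e-05), although 1 of the 4 animals of 188 dpn remained above background. SLC3A2, the heavy chain that brings several amino acid exchangers to the cell surface, moved up at birth and stayed there. Its signals were 219 to 284 at 94 dpc (median 283), 445 to 639 at 1 dpn (median 563), 581 to 1027 at 28 dpn (median 668), and 655, 662, 669 and 721 at 188 dpn. It rose 2.01-fold without overlap (log2 change 1.01, SE 0.15, adjusted p = 2.2e-05), and by 0.95 with the even arrays (adjusted p = 0.0018).

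SLC3A1, the heavy chain of a cystine carrier, fell at birth with all arrays (log2 change -1.54, SE 0.33, adjusted p = 0.00085). The even arrays, at 179 and 270, lay within the range of 94 dpc (178 to 386), and the change with them was -0.40 (adjusted p = 0.40). The mean of its probe sets gave -0.63 (adjusted p = 0.17). SLC7A7, which exports cationic amino acids together with SLC3A2, ranged from 207 to 368 at 1 dpn and 90.8 to 201 at 28 dpn and fell 1.94-fold without overlap (log2 change -0.96, adjusted p = 0.0038; -1.05 with the even arrays), but not when both its probe sets were averaged (-0.24, adjusted p = 0.46). SLC1A5 (ASCT2), a glutamine carrier, ranged from 722 to 1215 over the animals of the first 3 stages and had signals of 425, 624, 638 and 908 at 188 dpn. Its fall from 28 dpn was 1.53-fold (adjusted p = 0.047), a call that 15 of the 22 arrays each ended when left out (adjusted p up to 0.21), as did median centring (-0.41, adjusted p = 0.21). The glutamate carrier SLC1A3 had means of 45.3 at 94 dpc and 125 at 1 dpn (adjusted p = 0.015, and 0.16 with the even arrays). SLC36A2 was called higher at 28 dpn than at 1 dpn with both means below background, so no fold is given (log2 change 1.32, and 1.55 with the even arrays).

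SLC6A8, which takes up creatine, the substrate of the phosphocreatine energy store of muscle, increased with age. Its signals were 571 to 787 at 94 dpc (median 694), 580 to 1853 at 1 dpn (median 917), 1143 to 1591 at 28 dpn (median 1395), and 1811, 1835, 2395 and 2551 at 188 dpn. No single step was called with all arrays and without further normalization, with adjusted p of 0.098, 0.062 and 0.097. SLC6A8 was called higher at birth with the even arrays (log2 change 0.76, adjusted p = 0.045) and after median centring. Over the whole span it rose 3.04-fold without overlap (log2 change 1.60, SE 0.23, adjusted p = 8.1e-06).

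**Figure D4:**
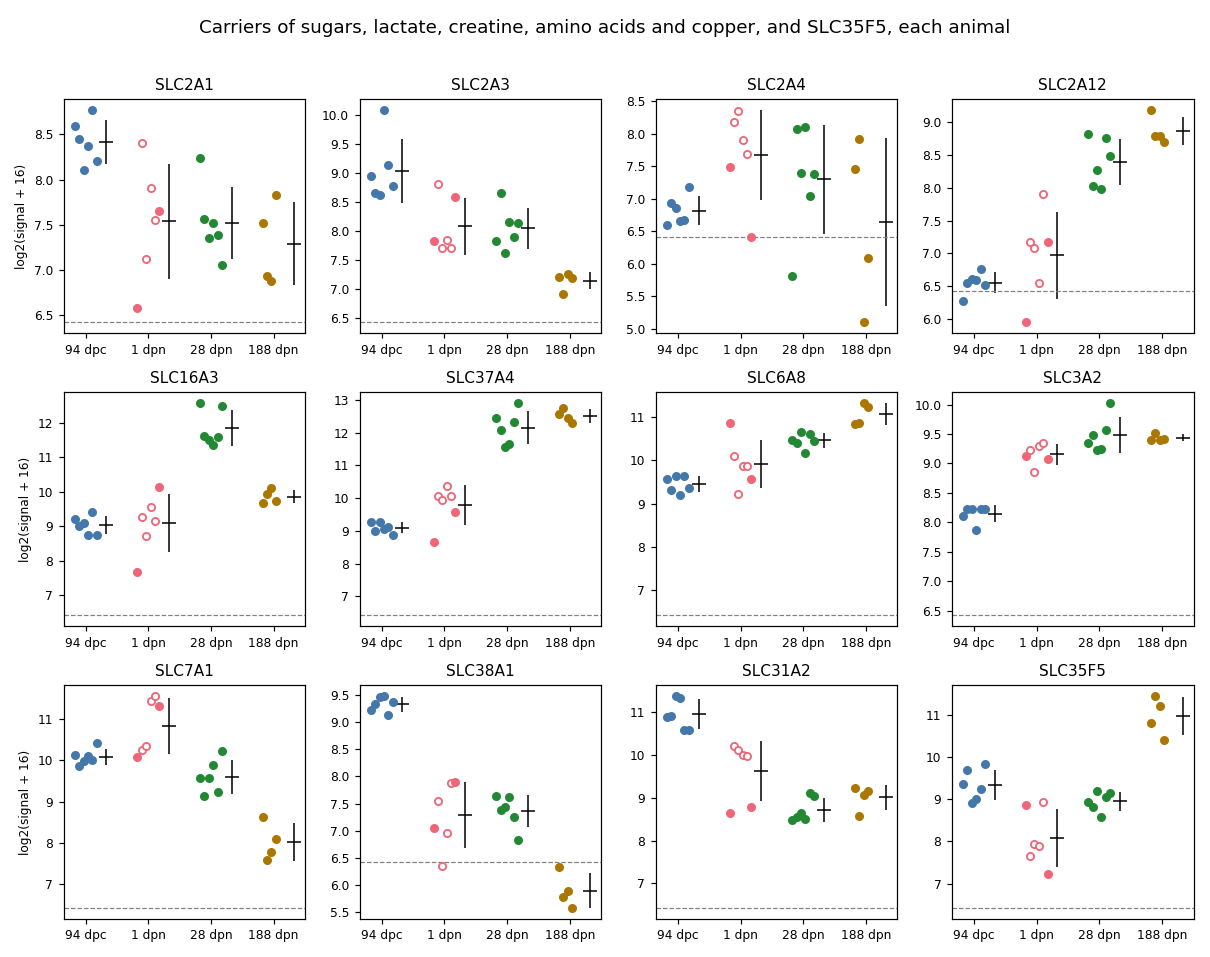
Each panel shows 1 gene, with log2(signal + 16) on the vertical axis and the 4 stages on the horizontal axis; points are animals, open points are the 1 dpn arrays with weak 5' signal, black bars are the mean with its SD, and the dashed line is background (6.42). SLC16A3 stands highest in the 6 animals of 28 dpn, SLC37A4 and SLC2A12 are higher at 28 and 188 dpn than at 94 dpc, SLC38A1 falls below background in the 4 animals of 188 dpn, and SLC35F5 is highest there.

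Among carriers of fatty acids and choline, 1 of 5 rose and 1 fell at birth (20.0% and 20.0%, against 17.3% and 23.8% of all named genes). SLC27A1 (FATP1), which helps long-chain fatty acids enter muscle cells, ranged from 57.0 to 141 at 94 dpc, 87.1 to 428 at 1 dpn and 87.7 to 189 at 28 dpn, and had signals of 85.9, 109, 123 and 167 at 188 dpn. It rose 2.57-fold at birth with all arrays (log2 change 1.36, SE 0.29, adjusted p = 8.0e-04). The even arrays, at 87.1 and 244, gave 0.62 (adjusted p = 0.22). SLC44A2, a choline transporter-like protein, was lower at 1 dpn than at both neighbouring stages, with means of 888, 579 and 914 and changes of -0.64 and 0.67 with the even arrays. Its fall was called on 1 of its 3 probe sets, and not after quantile normalization or median centring. Its rise was called on all 3 sets, but not after median centring. SLC22A5 (OCTN2), which imports carnitine, was not called, with stage means of 187, 174, 252 and 149.

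Of the 12 ion carriers, 3 rose and 1 fell at birth (25% and 8.33%, against 17.3% and 23.8% of all named genes). From 1 to 28 dpn 2 rose and 0 fell (16.7% and 0, against 15.1% and 12.9%). In the last step 0 were called either way, against 5.03% and 11.0%. SLC26A6, an anion exchanger, rose from a mean of 86.2 at 94 dpc to 214 at 1 dpn (log2 change 1.17, adjusted p = 0.00019; 1.57 with the even arrays) and stood at 408 at 188 dpn. SLC41A1, a magnesium carrier, rose in both of the first 2 steps (means of 480, 728 and 1266; 0.64 and 0.71 with the even arrays), though none of its 3 other probe sets was called in the second. SLC12A4, a potassium-chloride cotransporter, fell from 345 to 146 at birth (log2 change -1.24, adjusted p = 0.00013), and by less with the even arrays (-0.70, adjusted p = 0.042). SLC8A1, the sodium-calcium exchanger of the plasma membrane, had means below background at all stages, and its call at birth (adjusted p = 0.046) was lost with the even arrays (adjusted p = 0.35).

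Of the 16 carriers of nucleosides, vitamins and organic ions, 6 were higher and 1 lower at 188 dpn than at 94 dpc. These are 37.5% and 6.25%, against 18.4% and 27.0% of all named genes. Of these rises, SLC23A1 and SLC28A1 were called with both means below background. SLC29A1 (ENT1), an equilibrative nucleoside transporter, was highest at 28 dpn, where it ranged from 243 to 474, against 131 to 245 at 1 dpn and 156, 162, 179 and 241 at 188 dpn. Its rise was 1.75-fold (adjusted p = 0.0025; 0.12 with the even arrays) and its fall 1.71-fold (adjusted p = 0.014; 0.051 without replicate 2 of 188 dpn, 0.061 after quantile normalization and 0.085 after median centring). SLC22A3 (OCT3), an organic cation transporter, fell in the first and last steps, with means of 510, 221, 191 and 81.6 in order of age and a change at birth of -1.05 with the even arrays. SLC46A2 was called lower at 1 dpn than at 94 dpc (means 49.1 and 132) and higher again at 28 dpn (mean 140), the second call being lost without any of 6 single arrays, replicates 1, 3 and 5 of 1 dpn and replicates 4, 5 and 6 of 28 dpn (adjusted p up to 0.063), and after both other scalings (0.059 and 0.058). The even arrays gave -1.71 and 1.61.

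The metal carriers held 1 rise and 2 falls of 12 at birth (8.33% and 16.7%, against 17.3% and 23.8% of all named genes). The last step held 0 rises and 2 falls (0 and 16.7%, against 5.03% and 11.0%). SLC39A7 (ZIP7), which releases zinc from the endoplasmic reticulum, fell in both steps, with means of 1471, 700, 644 and 284 in order of age (log2 change over the span -2.36, adjusted p = 4.0e-08; at birth -1.07, and -0.98 with the even arrays). SLC11A1, a metal transporter of macrophage phagosomes, had 12.2 to 40.9 at 94 dpc, all below background, and 41.3 to 147 at 1 dpn. It was called at least 1.12-fold higher (adjusted p = 0.005), but not with the even arrays (adjusted p = 0.089). The summed macrophage markers were 3349 to 4300 and 1828 to 3960 in the same animals. Iron and zinc importer SLC39A14 was not called, with means of 313, 266, 321 and 229, and on its brighter set SLC39A1 (ZIP1) was called only over the whole span (1.73-fold lower, adjusted p = 0.016; 0.11 after median centring, and up to 0.092 without replicate 1 or 2 of 188 dpn). Its dimmer set was also called lower at birth (-1.21) and higher after it (0.91).

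SLC31A2, a copper transporter of vesicles, fell from 1508 to 2641 at 94 dpc (median 1900) to 387 to 1169 at 1 dpn (median 1003), without overlap (2.50-fold, log2 change -1.32, SE 0.26, adjusted p = 0.00046; -2.22 with the even arrays and -2.75 as the mean of both probe sets). It ranged from 340 to 539 at 28 dpn, and had signals of 363, 521, 559 and 581 at 188 dpn. Its 2 probe sets disagreed in the step from 1 to 28 dpn. The brighter one fell (-0.91, adjusted p = 0.015; 0.00 with the even arrays), whereas the other went from a mean of 23.4 to 129 (log2 change 2.11, adjusted p = 8.3e-05). No direction is therefore given for that step. Both were lower at 188 dpn than at 94 dpc (-1.94 and -1.51). Of the 39 members with several probe sets, SLC31A2 alone had sets called in opposite ways in the second step, and SLC33A1 alone over the whole span. The first and last steps had 0 such members. Of these 39, the brightest set was called in 14, 10, 4 and 15 genes in the 4 comparisons, and a further set was called the same way in 6, 4, 2 and 8 of them.

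Of the 18 carriers of other organelles, 5 rose and 3 fell at birth (27.8% and 16.7%, against 17.3% and 23.8% of all named genes). Of these rises, SLC17A1 was called with both means below background. From 1 to 28 dpn 2 rose and 3 fell (11.1% and 16.7%, against 15.1% and 12.9%), and 1 rose in the last step (5.56%, against 5.03%). After quantile normalization and after median centring 8 rose and 2 fell at birth, beside 1407 and 1266, and 1832 and 1012, of the 6765 named genes. SLC37A4, which brings glucose-6-phosphate into the endoplasmic reticulum, had the largest increase over the whole span among the 120 members. Its signals were 450 to 605 at 94 dpc (median 531), 389 to 1312 at 1 dpn (median 1014), 2982 to 7676 at 28 dpn (median 4698), and 4968, 5548, 6060 and 6927 at 188 dpn. All values at the 2 later stages lay above all values at the 2 earlier ones. It rose 5.20-fold from 1 to 28 dpn (log2 change 2.38, SE 0.25, adjusted p = 8.4e-07; 3.04 with the even arrays) and was 10.7-fold higher at 188 dpn than at 94 dpc (log2 change 3.41, SE 0.28, adjusted p = 4.1e-09). A second probe set gave 4.01 over the span (adjusted p = 4.9e-11). The small rise at birth (0.68, adjusted p = 0.040) was 0.02 with the even arrays, and 8 single arrays each ended its call when left out, replicates 2 to 5 of 1 dpn and replicates 2, 4, 5 and 6 of 94 dpc.

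SLC35F5, of a family that includes the nucleotide sugar carriers of the Golgi, was the only member called higher at 188 dpn than at 28 dpn. It ranged from 462 to 892 at 94 dpc (median 615), 133 to 475 at 1 dpn (median 226) and 367 to 568 at 28 dpn (median 494), and had signals of 1346, 1775, 2336 and 2770 at 188 dpn. All 4 lay above all other animals (4.03-fold over 28 dpn, log2 change 2.01, SE 0.30, adjusted p = 0.00014; 1.28 as the mean of its 3 probe sets). The fall at birth was -1.25 (adjusted p = 0.00082), -1.30 with the even arrays, and -0.51 when its probe sets were averaged (adjusted p = 0.060). Its rise from 1 to 28 dpn (0.87, adjusted p = 0.020) was not called with the even arrays (0.91, adjusted p = 0.094), after median centring (0.67, adjusted p = 0.058) or without replicate 2 or replicate 6 of 1 dpn (adjusted p up to 0.052).

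Other organelle carriers changed at birth or later. SLC35B3, which supplies the sulphate donor to the Golgi, fell 2.92-fold from 211 to 280 at 94 dpc to 9.96 to 141 at 1 dpn without overlap (log2 change -1.55, SE 0.34, adjusted p = 0.0011; -1.34 with the even arrays). SLC35A4 rose from a mean of 617 to 1430 (log2 change 1.12, adjusted p = 0.00053; 1.04 with the even arrays). SLC35B1, which carries ATP into the endoplasmic reticulum, was 2.09-fold higher at 188 dpn than at 94 dpc without overlap (adjusted p = 0.00025), with means of 1231, 1797, 2072 and 2587 in order of age. Its rise at birth was 0.49 (adjusted p = 0.046; 0.98 with the even arrays), a call that 16 of the 22 arrays each ended when left out (adjusted p up to 0.12). SLC35C2, a Golgi protein, ranged from 272 to 358 at 1 dpn and 37.3 to 203 at 28 dpn, and fell 2.21-fold (adjusted p = 0.0053; 0.083 with the even arrays and 0.20 as the mean of its probe sets).

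Few members had a turning point at 1 dpn. SLC7A1 and SLC25A33, 2 of 120, were called higher and then lower around it, beside 6.22% of all named genes. SLC2A4RG, SLC16A13, SLC44A2, SLC46A2 and SLC35F5, 5 of 120, were called lower and then higher, beside 7.83%. Called higher to 28 dpn and lower after it were SLC16A3, SLC16A13 and SLC29A1, and 61 members were called in none of the 3 steps. The shares of all named genes with these last patterns were not computed, so whether solute carriers differ in them cannot be read.

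**Figure D5:**
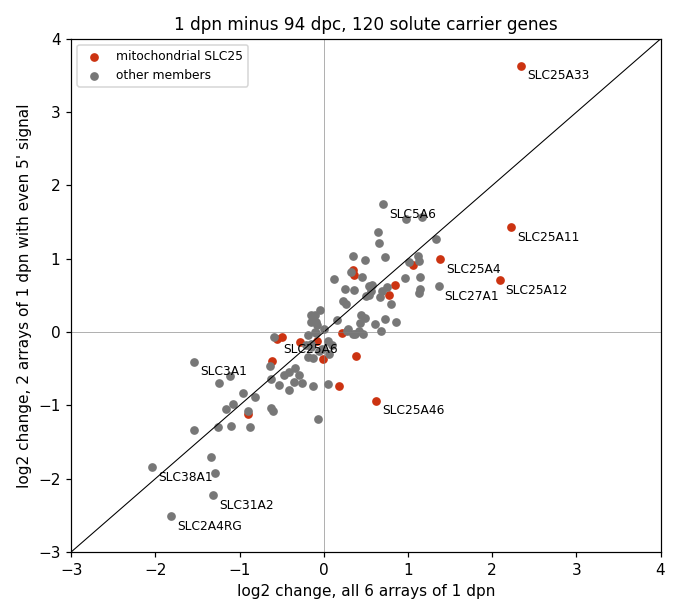
Each point is 1 of the 120 genes, with its log2 change from 94 dpc to 1 dpn using all 6 arrays of 1 dpn on the horizontal axis and using the 2 arrays with even 5' signal on the vertical axis; red points are mitochondrial carriers and the diagonal marks equal changes. SLC25A33 lies above the diagonal (2.35 and 3.63), SLC25A12 (2.09 and 0.70) and SLC25A11 (2.22 and 1.43) lie below it, and SLC2A4RG and SLC31A2 fall further with the even arrays.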

How the data were processed

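For 22 samples, the authors deposited an intensity for each probe set, and the submitters' processing notes name GCOS 1.1.1. Per the labels' protocols, DNase-treated RNA from TRI Reagent extraction was made into biotinylated cRNA. Each array had a trimmed mean of 500 (2% removed from either end), so the deposited arrays shared a scale, and log2(signal + 16) was used without further normalization. The stage comparisons used limma 3.58.1 with statmod 1.5.0 under R 4.3.3 on 23999 probe sets, with 1 mean per stage and Benjamini-Hochberg adjustment. A call is an adjusted p under 0.05. Folds are 2 to the power of the log2 change, which understates changes of dim genes. Where the dimmer stage lay wholly below background, a lower bound is given, and where only its mean did, the means are given. The fit was tested on simulated data.

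The members and lists were chosen with earlier results of these data known. The rule for named genes took the 6 largest called rises and falls of each step, the 5 brightest SLC25 and other members, and 36 members with known roles in muscle, of which 12 had no probe set with 1 symbol and were not analysed here. Further members were named after their values were seen. Of the 176 probe sets, 174 had an identifier in the RefSeq table, and 5 further sets with several symbols were left out. Alternatives covered scaling, pseudocount, variances, weights, stages fitted, brightness, probe sets, each array left out and, chosen after the data were seen, the arrays with even or weak 5' signal and a covariate for the 5'/3' ratio of GAPDH.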

Additional observations from a re-analysis of the deposited data

Results flagged for a closer look

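Among 168 stage groups of the 42 named genes, 10 had an animal far from the others by Dixon's criterion, which chance alone meets in about 1 in 20 groups. At 94 dpc, SLC1A5 was low in replicate 5 (809, against 1067 to 1183 in the others), SLC2A3 was high in replicate 4 (1070, against 378 to 548) and SLC3A2 was low in replicate 4 (219, against 260 to 284). At 1 dpn, replicate 1, an array with even 5' signal, was low for SLC25A37 (164, against 387 to 624), SLC27A1 (87.1, against 244 to 428) and SLC39A1 (942, against 1700 to 2377). At 28 dpn, SLC27A1 was low in replicate 5 (87.7, against 147 to 189), SLC35C2 in replicate 6 (37.3, against 125 to 203) and SLC46A2 in replicate 3 (21.8, against 119 to 214). At 188 dpn, SLC22A5 was high in replicate 1 (216, against 124 to 132).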

How the results depend on the processing

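Of 2429 recomputed values of the 74 calls of named genes, 2237 kept direction and call, 191 kept direction but not the call, and 1 reversed: SLC31A2 from 1 to 28 dpn was 0.60 (adjusted p = 0.036) as the mean of its probe sets. Covariate and even-array fits ended 16 and 14 of the 74 calls, and 13 of the 74 could not be fitted among the brighter sets.

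Against 23 rises at birth, median centring gave 36. Against 8 falls from 1 to 28 dpn, the mean of the sets gave 4, only the stages compared 5, only the weak 5' arrays 13, median centring 16, and single arrays left out 6 to 14. Against 1 rise from 28 to 188 dpn, array weights, the mean of the sets, even arrays, only the stages compared and quantile normalization each gave 2, weak 5' arrays and trended robust variances each 3, brighter sets 4, median centring 5, and single arrays left out 1 to 4. Against 16 falls in that step, median centring and quantile normalization each gave 10. The split of rises and falls at birth was 31 and 14 after quantile normalization and 36 and 14 after median centring. It was 13 and 12, and 10 and 16, in the second step, 2 and 10, and 5 and 10, in the last, and 39 and 18 over the whole span after centring. Over the 6765 named genes the splits moved as well, to 1407 and 1266, and 1832 and 1012, at birth. They were 897 and 1026, and 665 and 1394, in the second step and 385 and 601, and 674 and 448, in the last. After centring the split of the named genes over the span was 1855 and 1325. Median centring moved the median change of all probe sets at birth from -0.08 to 0.18, and over the span from -0.07 to 0.20. Signals near background limit 18 members at all stages.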
